A study of Mus musculus with 8 samples.

Results

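Romidepsin, an inhibitor of histone deacetylases, was given to cultured mouse myeloid cells, and 31 protein-coding genes that were nearly silent in untreated cultures carried RNA in every treated one. They were chosen by level alone, as genes at 3 CPM or more (reads of a gene over all reads counted in the library, times 1000000) in each of 4 treated libraries and below 1 CPM in each of 4 untreated libraries. Symbols starting with Hist, Kcn, Cacn, Scn or Zfp and the genes Dact3, Tubb2b, Tubb3, Pfn2, L1cam and Bik were left aside. The table held 26930 genes, of which 16555 were protein coding and 4953 of those lay below 1 CPM in every untreated library. The levels in both groups chose these genes, so their treated and untreated values are a description and carry no test.

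Poly(A) RNA was sequenced from cultured MDSCs, a class of immature myeloid cells named for holding back T cells, which were grown from the bone marrow of C57BL/6 mice. All cultures received GM-CSF and IL-6, each at 40 ng/ml, and from day 4 medium conditioned by TRAMP-C1, a mouse prostate tumour line; the labels describe the cells as senescent-like. The treated group had 4 libraries of cells exposed to Romidepsin at 0.5 µM for 6 h, and the untreated group had 4 libraries of cells grown in this way without the drug. No label says whether libraries came from separate mice or cultures, so adjusted p-values measure the spread between these libraries, which may be technical.

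Histone deacetylases remove acetyl groups from histone tails, and at many genes outside their usual tissue they are recruited by corepressor complexes that keep the promoter closed. The repressor REST, for example, holds neuronal genes silent in other tissues by binding an element called RE1. Inhibitors of these enzymes let acetylation build up within hours and are known to start transcription at some silent promoters, many of them rich in CpG.

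Library totals were 13227311 to 15396077 counts in treated and 12996892 to 23176949 in untreated libraries, so the limit of 3 CPM stood for 39.7 to 46.2 reads in treated libraries. Treated replicate 3 stood apart. Of the silent genes, 267, 340, 43 and 130 reached 3 CPM in treated replicates 1 to 4. Replicate 3 was the lowest treated library for 90.0% of the 2610 genes called higher over the whole table, and for 49.2% of all genes tested. Another 2080 were called lower, and scaling by library size alone gave 3886 higher and 1368 lower. All 14 markers of the labelled myeloid cells were detected, with summed levels of 20123, 16810, 32770 and 32047 CPM in treated replicates 1 to 4 and 38041 to 39754 CPM in untreated libraries. Of these markers 2 (Spi1 and Csf3r) were called lower in treated cells. In RNA from bulk cultures, fewer cells of a type and less RNA per cell cannot be told apart.

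The 4 genes with the highest treated level per kilobase of exon were Crip2, Camk2n2, Cadm4 and Efna3, and the 250 bases before their transcription starts are printed here as examples of the promoters involved. The sequences and starts are those of RefSeq on GRCm38.p6, written 5′ to 3′ on the gene's strand. Gene positions given below are those of GENCODE, and by these the Camk2n2 and Efna3 windows reach slightly into the gene. Capitals mark matches on either strand to the GC box GGGCGG and to the left and right parts of RE1, CAGCACC and GGACAG.
Crip2 (chr12:113139986-113140235, plus strand): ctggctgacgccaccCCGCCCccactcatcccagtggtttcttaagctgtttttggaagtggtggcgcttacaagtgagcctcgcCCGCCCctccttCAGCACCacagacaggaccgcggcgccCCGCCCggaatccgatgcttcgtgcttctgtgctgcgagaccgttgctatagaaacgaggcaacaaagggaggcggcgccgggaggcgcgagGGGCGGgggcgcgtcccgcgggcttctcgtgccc
Camk2n2 (chr16:20621279-20621528, minus strand): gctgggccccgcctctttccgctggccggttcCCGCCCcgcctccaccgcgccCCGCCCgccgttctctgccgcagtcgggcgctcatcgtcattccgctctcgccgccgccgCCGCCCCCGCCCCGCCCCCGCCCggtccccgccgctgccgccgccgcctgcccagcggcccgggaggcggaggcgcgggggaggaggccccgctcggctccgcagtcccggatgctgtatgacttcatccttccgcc
Cadm4 (chr7:24481773-24482022, plus strand): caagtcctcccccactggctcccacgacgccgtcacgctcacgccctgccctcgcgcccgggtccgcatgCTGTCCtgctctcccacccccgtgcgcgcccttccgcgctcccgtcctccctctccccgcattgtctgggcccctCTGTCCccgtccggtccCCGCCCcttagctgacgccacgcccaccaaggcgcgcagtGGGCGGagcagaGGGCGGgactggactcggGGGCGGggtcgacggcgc
Efna3 (chr3:89322940-89323189, minus strand): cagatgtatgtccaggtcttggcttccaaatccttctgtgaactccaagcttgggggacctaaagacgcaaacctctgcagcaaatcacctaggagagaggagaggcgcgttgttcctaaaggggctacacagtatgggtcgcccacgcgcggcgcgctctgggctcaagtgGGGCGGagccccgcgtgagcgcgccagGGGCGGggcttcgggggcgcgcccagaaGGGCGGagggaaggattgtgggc
The Crip2 window held 4 GC boxes and 1 left part of RE1. Shortly after that left part came AGACAG, which differs from the right part in 1 letter and so was not counted. The Camk2n2 window held 6 GC boxes, some of which overlap, the Cadm4 window 4 with 2 right parts of RE1, and the Efna3 window 3. A GC box occurred in 44.4% of 16522 protein-coding promoters of the same length, the left part of RE1 in 5.54% and the right part in 19.1%. None of these 4 windows held the TATA box TATAAA (11.9% of all promoters), the CCAAT box (36.1%), the AP-1 site TGANTCA (6.13%), the cyclic AMP element TGACGTCA (2.07%) or the E-box CACGTG (6.79%). Promoters of other genes of the set did hold some of these elements. The CCAAT box occurred in those of Pbx4, Tmem25, Icam5, Sema6c, Armcx6, Ankrd34a, Ltbp4, Myh10, Dzip1 and Gpr137c. TATAAA occurred in that of Ankrd34a, TGANTCA in that of Tpbg and CACGTG in those of Armcx6 and Dzip1. The 4 windows printed here therefore do not stand for the whole set in these elements. All such matches describe letters only.

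Together the 31 genes summed to 455, 459, 142 and 265 CPM in treated replicates 1 to 4, and to 10.9, 11.96, 9.21 and 11.1 CPM in untreated replicates 1 to 4. Their counts lay between 47 and 727 reads in a treated library and never exceeded 21 in an untreated one. The median of the 31 folds of mean CPM was 27.6, with the lowest at 7.60 for Gpr137c. Efna3 alone had no read in any untreated library, and against a floor of 3 counts over the untreated group it was at least 390-fold higher in treated cells. All 31 were tested and called higher by edgeR's quasi-likelihood test, with adjusted p-values between 2.14e-04 and 0.00463, where 20.3% of all tested genes were called higher. The rule used this contrast, so nothing is read from that count. Their median log2 fold change was 4.39, against 0.0057 over all tested genes.

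**Figure D1:**
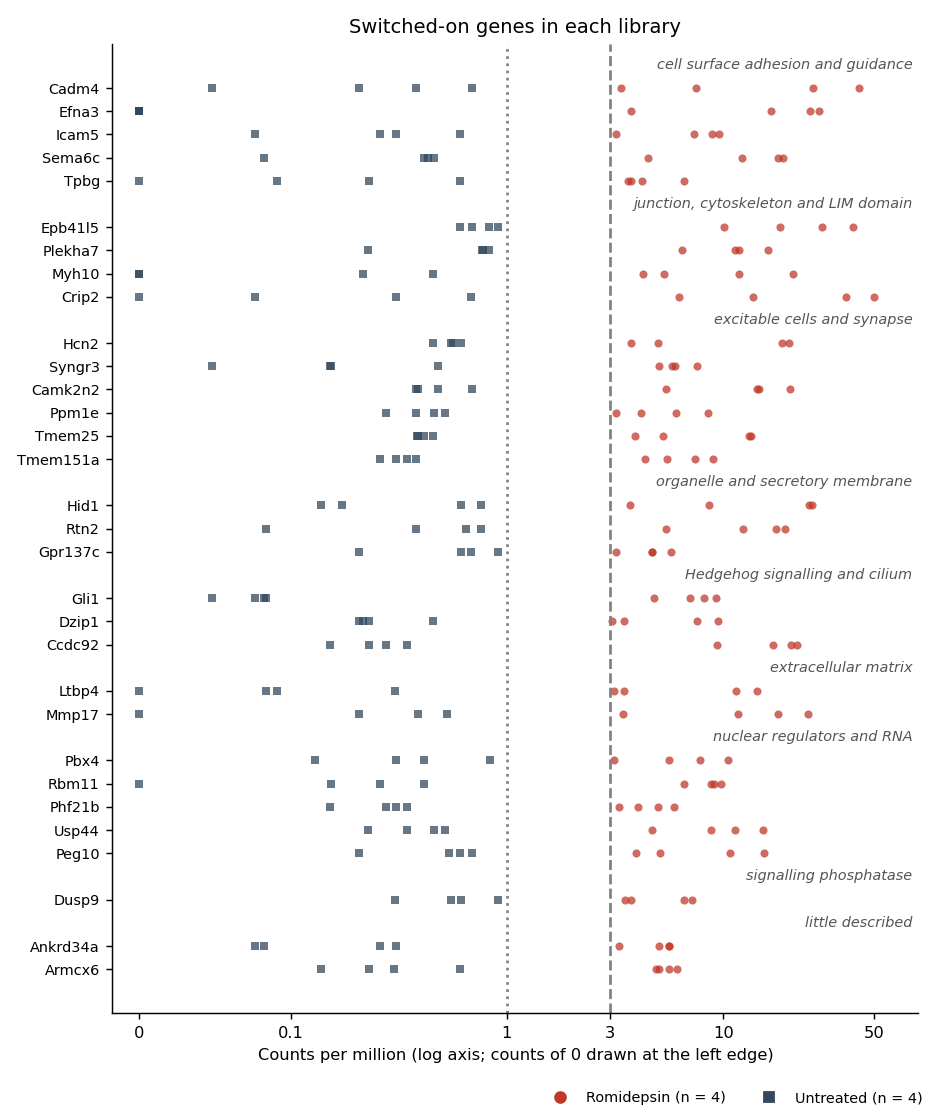
Level of each of the 31 switched-on genes in CPM (log axis) in 4 Romidepsin libraries (circles) and 4 untreated libraries (squares), ordered by role, with broken lines at the limits of 3 and 1 CPM. Treated values reach 49.6 CPM (Crip2), and untreated values of 0 are drawn at the left edge.

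These levels were modest per length. Treated levels spanned 12.7 CPM per kilobase of exon for Crip2 to 0.521 for Gpr137c, with a median of 2.18. The median tested protein-coding gene had 7.22 CPM per kilobase in treated cells, and 27 of the 31 genes lay below it. Crip2, Camk2n2, Cadm4 and Efna3 (7.52) were the 4 above.

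Proteins of the cell surface that act in adhesion and guidance made up 5 of the genes. Cadm4, an immunoglobulin-family adhesion molecule known for contact between Schwann cells and axons (chr7:24482023-24504539, plus strand), had 42.4, 25.9, 3.38 and 7.45 CPM in treated replicates 1 to 4 and 0.692, 0.379, 0.206 and 0.0431 CPM in untreated replicates 1 to 4. It varied most of all 31 among treated libraries, with a coefficient of variation of 90.9%, and treated replicate 1 was the highest. Its log2 fold change was 5.62 ± 0.94 (SE), 4.95 without treated replicate 1 and 6.24 without untreated replicate 1. Efna3, a GPI-anchored ephrin that signals to Eph receptors on a neighbouring cell (chr3:89313899-89322965, minus strand), had 27.7, 25.2, 3.77 and 16.6 CPM in treated cells and 0 in all 4 untreated libraries. Sema6c, a transmembrane semaphorin of axon guidance, had 17.9, 18.8, 4.48 and 12.2 CPM in treated and 0.462, 0.0757, 0.413 and 0.431 CPM in untreated cells. In each of these 3 genes treated replicate 3 was the lowest treated library, and the rule requires that it exceed every untreated one. Icam5, or telencephalin, is an adhesion molecule of forebrain dendrites that binds the leukocyte integrin LFA-1, and it had 9.56, 8.92, 3.18 and 7.31 CPM in treated and 0.308, 0.606, 0.0688 and 0.259 CPM in untreated cells. Tpbg, the trophoblast glycoprotein 5T4 of placenta and embryo, was highest in treated replicate 4, at 6.62 CPM, with 4.23, 3.63 and 3.77 CPM in treated replicates 1 to 3. Untreated libraries had 0.231, 0.606, 0 and 0.0863 CPM of Tpbg, and its log2 fold change of 4.07 ± 0.74 became 5.11 without untreated replicate 2.

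Junction, cytoskeleton and LIM-domain proteins were 4 of the genes and included the most abundant. Crip2 encodes a small LIM-domain protein known mainly from heart and vessels and lies at chr12:113140236-113145506, plus strand (GRCm38, as for the other positions). It had 49.6, 36.9, 6.24 and 13.8 CPM in treated and 0.308, 0.681, 0.0688 and 0 CPM in untreated cells. Its log2 fold change was 6.42 ± 0.96, and 7.52 without untreated replicate 2, which held most of its untreated reads. Epb41l5, a FERM-domain protein that shapes epithelial polarity and gastrulation in the mouse (chr1:119545037-119649000, minus strand), had 28.7, 39.8, 10.1 and 18.4 CPM in treated and 0.692, 0.606, 0.825 and 0.906 CPM in untreated cells. Plekha7, which links the cadherin complex of epithelial junctions to microtubules, had 11.8, 16.1, 6.43 and 11.4 CPM in treated and 0.769, 0.227, 0.825 and 0.777 CPM in untreated cells. Both epithelial genes were spread evenly over untreated libraries, apart from a low Plekha7 value in replicate 2. Epithelial markers, among them Cdh1, summed to 67.5, 31.8, 18.5 and 17.5 CPM in treated replicates 1 to 4 and to 170, 6.06, 4.26 and 4.49 CPM in untreated replicates 1 to 4. Neither of the 2 such markers tested, of 7 in the table, was called, and Esrp1, Cldn7 and Grhl2 stayed below 1 CPM in every library. In untreated replicate 1, where this sum was highest, Epb41l5 was at 0.692 and Plekha7 at 0.769 CPM. The rule held both genes below 1 CPM in every untreated library, so their untreated values could hardly follow these markers. The part of these markers in the result was not tested.

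Myh10, the heavy chain of nonmuscle myosin IIB (chr11:68691559-68816632, plus strand), had 11.9, 21.1, 5.33 and 4.25 CPM in treated and 0, 0.454, 0 and 0.216 CPM in untreated cells. Its log2 fold change was 5.56 ± 0.90, and 6.39 without untreated replicate 2. Fibroblast and stromal markers were high in both libraries numbered 2. They summed to 16.6, 323, 15.9 and 14.7 CPM in treated replicates 1 to 4 and to 9.31, 86.9, 14.2 and 8.24 CPM in untreated replicates 1 to 4; none of the 7 tested, of 11 in the table, was called, and Lepr and Lum stayed below 1 CPM throughout. B and plasma cell markers were likewise highest in both libraries numbered 2. They summed to 40.7, 570, 92.1 and 120 CPM in treated replicates 1 to 4 and to 276, 877, 410 and 243 CPM in untreated replicates 1 to 4. Replicate 2 was also the library with the most Myh10 in each group, and the part of either marker set in the result was not tested.

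Genes known from excitable cells and synapses numbered 6. Camk2n2, an endogenous inhibitor of the kinase CaMKII (chr16:20619215-20621287, minus strand), was the second most abundant per length and had 20.3, 14.4, 5.46 and 14.6 CPM in treated and 0.692, 0.379, 0.481 and 0.388 CPM in untreated cells. Hcn2, a pacemaker channel opened by hyperpolarization and known from heart and brain (chr10:79716634-79736108, plus strand), had 18.6, 20.2, 3.77 and 5.01 CPM in treated and 0.616, 0.454, 0.550 and 0.561 CPM in untreated cells. Treated replicates 1 and 2 stood well above replicates 3 and 4 for Hcn2, and the same held for Tmem25, an immunoglobulin-family membrane protein of neurons. Tmem25 had 13.5, 13.2, 3.897 and 5.29 CPM in treated and 0.385, 0.454, 0.413 and 0.388 CPM in untreated cells. Syngr3, a protein of synaptic vesicles, was far more even, at 6.01, 5.82, 5.07 and 7.59 CPM in treated and 0.154, 0.151, 0.481 and 0.0431 CPM in untreated cells. Its log2 fold change was 4.58 ± 0.59, and 5.47 without untreated replicate 3. Tmem151a, a membrane protein known from neurons, averaged 6.57 ± 2.06 CPM in treated and 0.322 ± 0.0512 CPM in untreated cells (SD, n = 4 each). Ppm1e, a brain phosphatase that acts on CaM kinases, averaged 5.47 ± 2.33 CPM in treated and 0.408 ± 0.106 CPM in untreated cells (SD, n = 4 each).

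Proteins of organelles and secretion were 3 genes. Hid1, which acts at the trans-Golgi in making dense-core vesicles of neuroendocrine cells (chr11:115347707-115367756, minus strand), had 25.9, 25.02, 3.70 and 8.64 CPM in treated and 0.616, 0.757, 0.138 and 0.173 CPM in untreated cells. Rtn2, a reticulon that bends the membrane of the endoplasmic reticulum, had 17.5, 19.3, 5.46 and 12.4 CPM in treated and 0.0769, 0.379, 0.756 and 0.647 CPM in untreated cells. Treated replicate 3 was again the lowest treated library for both. Gpr137c, of a family of multipass lysosomal membrane proteins, lay closest to its untreated level, at 4.71, 5.75, 3.18 and 4.67 CPM in treated and 0.616, 0.681, 0.206 and 0.906 CPM in untreated cells. It overlaps Txndc16 on the opposite strand, which had 113, 124, 55.3 and 82.2 CPM in treated and 25.03 to 32.2 CPM in untreated cells. The strand setting of the counts is not given in the sources used here, so Gpr137c is uncertain.

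The Hedgehog pathway and the primary cilium, the antenna on which that pathway signals, were represented by 3 genes. Gli1, the transcription factor that is both effector and target of Hedgehog signalling (chr10:127329882-127341974, minus strand), had 8.19, 7.03, 4.81 and 9.26 CPM in treated and 0.0769, 0.0757, 0.0688 and 0.0431 CPM in untreated cells. Each untreated library held 1 read of it, and the mean was 111-fold higher in treated cells. Its paralogs were near 0 in both groups: Gli2 averaged 0.0189 CPM in treated and 0.0192 CPM in untreated cells and Gli3 0.200 CPM in treated and 0.110 CPM in untreated cells. Gli1 overlaps Arhgap9 and Gm47200 on the opposite strand. Arhgap9 had 23.5 to 82.1 CPM in treated and 130 to 170 CPM in untreated cells, Gm47200 was not analysed here, and the part of reads from either in the Gli1 counts was not tested. Ccdc92, a protein of the centriole and ciliary region (chr5:124834418-124862424, minus strand), had 21.9, 17.0, 9.35 and 20.5 CPM in treated and 0.231, 0.151, 0.275 and 0.345 CPM in untreated cells. Its lowest treated library was 27.1 times its highest untreated one. Across the 31 genes, leaving out Efna3 with no untreated read, this factor had a median of 7.96 and a minimum of 3.51. The limits of the rule alone keep it above 3. Dzip1, a protein of the ciliary base that takes part in Hedgehog signalling, had 7.58, 9.45, 3.05 and 3.48 CPM in treated and 0.231, 0.454, 0.206 and 0.216 CPM in untreated cells.

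In the extracellular matrix, Ltbp4 and Mmp17 met the rule. Ltbp4, which binds latent TGF-β and helps assemble elastic fibres (chr7:27305136-27337692, minus strand), had 14.3, 11.5, 3.12 and 3.48 CPM in treated and 0.0769, 0.303, 0 and 0.0863 CPM in untreated cells. Its log2 fold change was 5.74 ± 0.81, and 6.58 without untreated replicate 2, one of the libraries rich in stromal and B cell markers. Mmp17, a GPI-anchored matrix metalloproteinase (chr5:129584169-129611099, plus strand), had 17.9, 24.6, 3.44 and 11.7 CPM in treated and 0, 0.530, 0.206 and 0.388 CPM in untreated cells. The other membrane-bound enzymes present in untreated cells moved the other way. Mmp14 averaged 36.4 ± 30.9 CPM in treated and 265 ± 79.0 CPM in untreated cells, and Mmp25 averaged 1.68 ± 1.596 CPM in treated and 22.4 ± 7.56 CPM in untreated cells (SD, n = 4 each). Both fell by edgeR's quasi-likelihood test, by 3.07 and 4.09 on the log2 scale with adjusted p-values of 0.0107 and 0.00197.

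Nuclear and RNA-binding proteins were 5 genes. Rbm11, a splicing regulator of testis and brain, was among the most even, at 9.76, 9.07, 6.63 and 8.77 CPM in treated and 0.154, 0, 0.413 and 0.259 CPM in untreated cells. Usp44, a deubiquitinase of the mitotic checkpoint, had 11.4, 15.3, 4.68 and 8.77 CPM in treated and 0.462, 0.227, 0.344 and 0.518 CPM in untreated cells. Pbx4, a homeodomain protein of the testis, had 7.85, 10.6, 3.12 and 5.64 CPM in treated and 0.308, 0.833, 0.413 and 0.129 CPM in untreated cells. None of the 3 overlapped between groups, as the rule requires. Peg10, an imprinted gene derived from a retrotransposon and needed for the mouse placenta (chr6:4747306-4760517, plus strand), had 10.7, 15.5, 3.96 and 5.08 CPM in treated and 0.539, 0.606, 0.206 and 0.690 CPM in untreated cells. Phf21b, a PHD-finger protein of the nervous system, averaged 4.56 ± 1.14 CPM in treated and 0.270 ± 0.0840 CPM in untreated cells (SD, n = 4 each). Its paralog Phf21a, a subunit of the corepressor complex that serves REST, fell by 1.47 on the log2 scale (adjusted p = 0.00403, edgeR), with means of 36.1 ± 11.0 CPM in treated and 83.4 ± 8.51 CPM in untreated cells (SD, n = 4 each).

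The remaining 3 genes were Dusp9, Ankrd34a and Armcx6. Dusp9, a MAP kinase phosphatase needed in the mouse placenta, had 7.17, 6.58, 3.51 and 3.76 CPM in treated and 0.616, 0.303, 0.550 and 0.906 CPM in untreated cells. Armcx6, of an X-linked family with armadillo repeats (chrX:134748461-134751417, minus strand), had the smallest coefficient of variation among treated libraries, 10.5%, at 6.15, 5.59, 5.07 and 4.87 CPM in treated and 0.231, 0.606, 0.138 and 0.302 CPM in untreated cells. Ankrd34a, an ankyrin-repeat protein known from brain, had 5.05, 5.59, 3.31 and 5.64 CPM in treated and 0.308, 0.0757, 0.0688 and 0.259 CPM in untreated cells. For these 3 genes the treated libraries lay closer together than for Cadm4 or Crip2.

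By the tissue in which they are best known, 10 of the 31 genes belong to the nervous system, 3 to placenta or embryo, 2 to epithelium, 2 to heart and vessels and 2 to testis, and 12 to several tissues. These assignments come from general knowledge and were made after the genes were known. Of 8 lists of tissue genes, the matrix list held Ltbp4 and the other 7 held none of the 31. In a list of 68 neuronal and synaptic genes in the table, 49 lay below 1 CPM in every untreated library. Of the 23 tested, 13 were called higher and 1 lower, where 20.3% and 16.2% of all genes were. Only 4 of the 49 were tested, and all 4 were called higher. Genes this low in untreated cells passed the filter for low counts mainly through their treated levels. The shares called higher in these lists are therefore a description, and nothing is read from them. Among the 13, the synaptic vesicle gene Sv2a had 22.1, 22.1, 17.4 and 23.8 CPM in treated and 0.846, 1.67, 1.17 and 1.51 CPM in untreated cells, and so missed the untreated limit. The vesicular glutamate transporter Slc17a7 missed the treated limit in replicates 3 and 4, at 1.43 and 2.30 CPM, and met the untreated one with 0.0431 to 0.454 CPM. Developmental transcription factors were called higher in 10 and lower in 2 of 20 tested, and germ line genes higher in 5 of 11. Genes below 1 CPM in every untreated library made up 6 of those 10 and 1 of those 5, and no other such gene was tested. None of 11 tested muscle genes was called. Matrix genes were called higher in 5 and lower in 1 of 28, and epithelial genes higher in 2 and lower in 3 of 11. Hormones and growth factors were called higher in 3 and lower in 1 of 14, and drug exporters higher in 1 of 11. Of those higher, 3 matrix genes, 1 epithelial gene and 1 hormone or growth factor gene lay below 1 CPM in every untreated library.

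Many of the 31 genes belong to families with another member already active in these cells. Of the 26 genes with listed relatives, 18 had one at 3 CPM or more in every untreated library, as did 31 of the 65 relatives counted singly. The same share was not counted for other genes, so it is not read as a trait of these genes. Myh10 reached 1.02 CPM per kilobase in treated and 0.016 in untreated cells, and its relative Myh9, nonmuscle myosin IIA, stood at 79.2 in treated and 72.7 in untreated cells. Crip1 had 35.2 CPM per kilobase in treated and 43.4 in untreated cells, and Rtn4 63.7 in treated and 62.1 in untreated cells, and none of these 3 relatives was called. Over the 45 relatives tested, 11 were called higher and 13 lower, or 24.4% and 28.9%, against 20.3% and 16.2% of all genes. Of those higher, Efna4, Cadm3, Hcn3, Armcx1 and Armcx4 lay below 1 CPM in every untreated library. Such genes passed the filter for low counts mainly through their treated levels, so nothing is read from the share called higher. Among those higher was Efna4, whose gene neighbours Efna3, at 2.63 ± 1.43 CPM in treated and 0.107 ± 0.0414 CPM in untreated cells (SD, n = 4 each; log2 fold change 4.17 ± 0.54, adjusted p = 0.00162, edgeR). Cadm3 and Hcn3, relatives of Cadm4 and Hcn2, were higher by 4.15 ± 0.59 and 3.76 ± 0.59 on the log2 scale, and Camk2n1 by 3.04 ± 0.71 (adjusted p = 0.00206, 0.00273 and 0.0119, edgeR). These stayed below 3 CPM in a treated library or above 1 CPM in an untreated one. Armcx2, the X-linked neighbour of Armcx6, averaged 23.4 ± 7.73 CPM in treated and 1.83 ± 0.751 CPM in untreated cells (SD, n = 4 each; log2 fold change 3.33 ± 0.34).

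**Figure D2:**
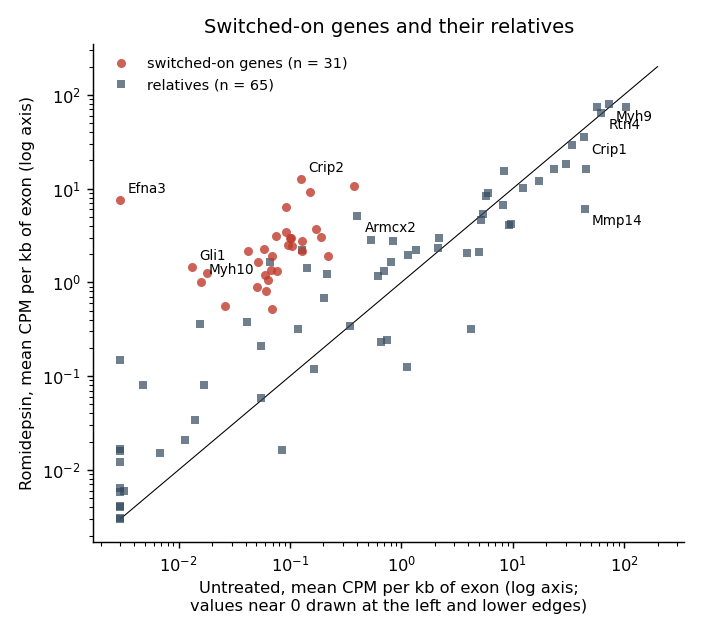
Mean CPM per kilobase of exon of the 31 switched-on genes (circles) and 65 relatives (squares) in Romidepsin cells (vertical) and untreated cells (horizontal), both on log axes, with the line of equal levels. Myh9 lies near the line at 79.2 in treated and 72.7 in untreated cells, and Mmp14 lies below it at 6.11 in treated and 44.4 in untreated cells.

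Treated replicate 3 was the lowest treated library for 28 of the 31 genes (90.3%), which is close to the 90.0% of all genes called higher. Over all genes tested the share was 49.2%. The median ratio of a treated library to the gene's treated mean was 1.24, 1.38, 0.466 and 0.899 in replicates 1 to 4 for the 31 genes, 0.635 in replicate 3 for all genes called higher and 0.873 there for all genes tested. These ratios use CPM without the TMM factors of the fit, which were 1.19, 1.19, 0.983 and 1.08 in treated replicates 1 to 4. The differences between the sets were not tested. The median coefficient of variation among treated libraries was 44.8% for the 31 genes, 31.02% for all genes called higher and 26.7% for all genes tested. Without treated replicate 3, the median coefficient for the 31 was 27.7% and the median fold of means 30.5. The treated libraries with the highest sums of these genes, replicates 1 and 2, had the lowest sums of myeloid markers, and the part of this in the result was not tested.

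**Figure D3:**
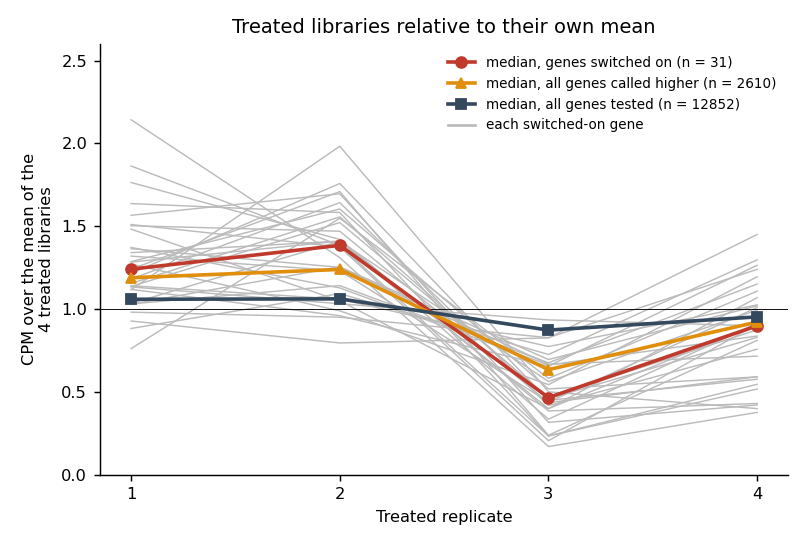
CPM in each treated replicate over the gene's mean of the 4 treated libraries, with a grey line for each of the 31 switched-on genes and thick lines for the medians of 3 sets; lines only join the values of one gene or set. Replicate 3 has a median of 0.466 for switched-on genes, 0.635 for all genes called higher and 0.873 for all genes tested.

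Because every library had to pass, this library also decided how many genes met the rule. With treated replicate 3 left out, 109 genes met it in the other 7 libraries, against 31 with all 8. In treated replicate 3 those 109 genes had a median of 2.34 CPM, and 31 of them reached 3 CPM (28.4%), where 62.3% of all protein-coding genes did. The latter share includes genes already expressed in untreated cells, and of the 4953 silent genes 43 (0.868%) reached 3 CPM there. In that library 108 of the 109 genes lay above all 4 untreated libraries. With another library left out the number was 31 to 41. Of 85 silent genes at 3 CPM in exactly 3 treated libraries, 82 missed the limit in replicate 3. Most silent genes remained low, as 3988 of the 4953 (80.5%) stayed below 1 CPM in every treated library, and 39 (0.787%) met the limits in all 4, the 8 left aside by name included.

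**Figure D4:**
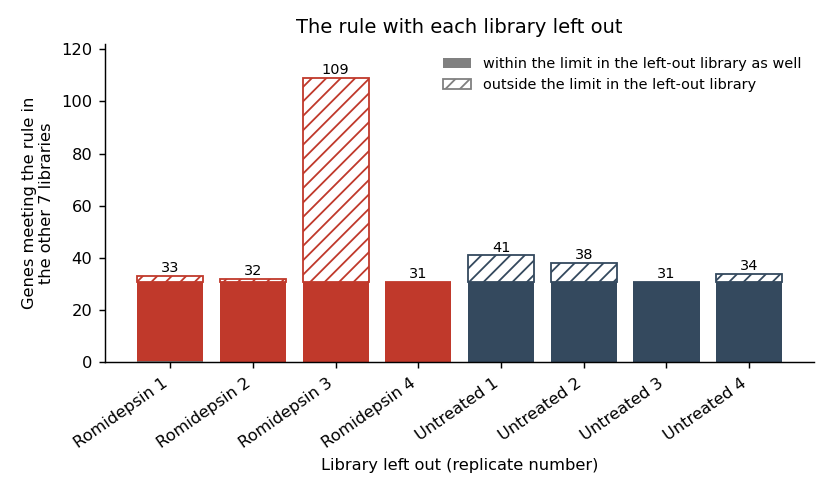
Number of genes meeting the rule in the other 7 libraries when each library is left out, 4 Romidepsin bars then 4 untreated bars; solid parts are genes within the limit in the left-out library too, hatched parts are outside it. Leaving out Romidepsin replicate 3 gives 109 genes, and the other bars lie between 31 and 41.

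Closest inside the treated limit were Dzip1 (3.05 CPM in its lowest treated library), Pbx4 and Ltbp4 (both 3.12), and closest inside the untreated limit were Dusp9, Epb41l5 and Gpr137c (0.906 CPM in the highest untreated library of each). Just outside the treated limit lay the chloride channel Clcn2, at 2.99 CPM in its lowest treated library, and Ephb2 and Fxyd7, both at 2.92. Ephb2 is a receptor for ephrins. Just outside the untreated limit were the synaptic fusion protein gene Stx1a and Nrbp2, both at 1.0002 CPM in their highest untreated library, and the ciliary transport gene Ttc26 at 1.04 CPM. The mirrored rule, below 1 CPM in every treated and 3 CPM or more in every untreated library, was met by Apol7c and Ceacam15 alone. Ceacam15 had 0.341, 0.605, 0 and 0 CPM in treated and 15.5, 17.4, 5.02 and 6.99 CPM in untreated cells.

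The 31 genes were scattered over 16 chromosomes. The nearest pair, Sema6c and Ankrd34a on chromosome 3, lay 1423 kb apart. An upstream gene on the same strand lay within 10 kb for 35.5% of the 31 and for 21.5% of the other silent protein-coding genes. In 2 cases (6.45%, against 3.27% of the other silent genes and 3.93% of all protein-coding genes) that upstream gene was itself called higher. Lpar2 lay before Pbx4 (means of 7.59 CPM in treated and 2.32 CPM in untreated cells). Ptpn4 lay before Epb41l5 (32.0 CPM in treated and 7.79 CPM in untreated cells). Cnih2, 7.34 kb before Tmem151a, was not tested, with means of 1.68 CPM in treated and 0.197 CPM in untreated cells. Efna4, called higher, lay 10.4 kb before Efna3, just past the limit of 10 kb. Reads running on from an upstream gene cannot be told apart from the gene's own in gene counts. None overlapped a gene on the same strand, against 7.62% of the other silent genes and 8.15% of all protein-coding genes. On the opposite strand 7 (22.6%) overlapped one, against 24.1% and 29.1%.

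The starts of their transcripts were rich in CpG. In the first 300 bases of the longest coding transcript the 31 genes had a median observed over expected CpG ratio of 0.794 and a median GC content of 66.7%. The CpG ratio was at least 0.6 in 26 of the 31 (83.9%). The share was 69.9% of silent genes that reached 3 CPM in 1 to 3 treated libraries, 34.1% of silent genes that stayed below 1 CPM in every treated library, and 60.4% of all protein-coding genes. Values below 0.6 were those of Tmem25, Armcx6, Ankrd34a, Ltbp4 and Plekha7. The highest was 1.10, in Ccdc92, and Hcn2 had the highest GC content, at 82.7%. These are descriptions of sequence, chosen after the expression values were seen.

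**Figure D5:**
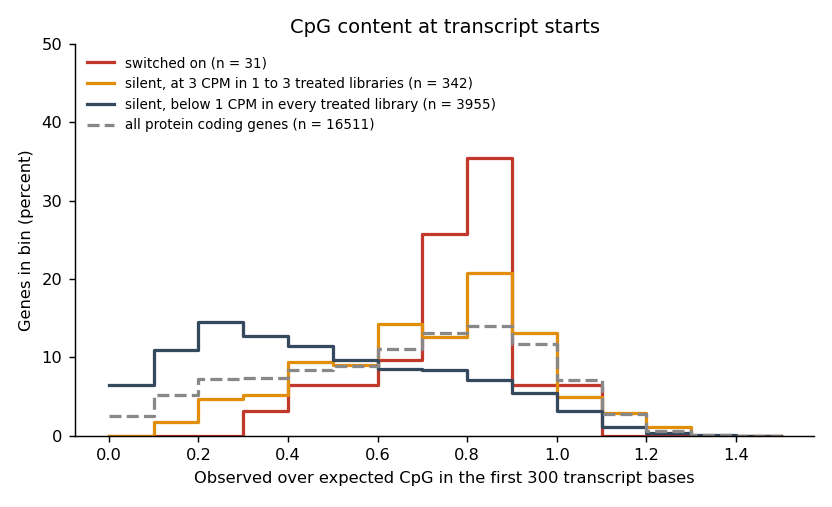
Percent of genes (vertical) by observed over expected CpG ratio in the first 300 transcript bases (horizontal) for the 31 switched-on genes, silent genes at 3 CPM in 1 to 3 treated libraries, silent genes that stayed below 1 CPM, and all protein-coding genes. Ratios of at least 0.6 were held by 83.9%, 69.9%, 34.1% and 60.4% of these sets.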

How the data were processed

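RNA was measured in 8 libraries, 4 treated and 4 untreated. The deposited values are raw counts per Ensembl gene. The labels' protocols name NEBNext poly(A) selection and a NextSeq 500 sequencer. FastQC, STAR 2.5.2a, DESeq2 and the GRCm38 (mm10) genome are named in the submitters' processing notes. How reads were counted (tool, annotation, strand, filters) is not given in the sources used here. Overlapping genes and near-identical copies may therefore share or swap reads. Of 26930 identifiers, 26881 matched the annotation (GENCODE, GRCm38), which gave biotypes, positions and merged exon lengths.

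CPM for the rule was the raw count over the library total. The whole table was tested with edgeR 4.0.16 in R 4.3.3 (filterByExpr, 12852 genes, TMM, robust quasi-likelihood F test, two-sided), with Benjamini-Hochberg adjustment and a threshold of 0.05, after a test on simulated counts. DESeq2 1.42.0, limma-voom (limma 3.58.1), other scalings, no filter, other limits, each library left out and a replicate block were alternatives. Leaving out both libraries numbered 3 was added after seeing the data. Members, gene lists, markers, relatives and tissue roles were chosen with earlier results of these data known. Genes were named by level per length, fold, smallest or largest variation, closeness to the limits, list membership or role. Near 1 CPM a library holds 13.0 to 23.2 reads, so low levels are imprecise.

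The groups share replicate numbers. Deviations from the group means correlated at 0.525, 0.270, 0.457 and 0.171 within numbers 1 to 4, and at most at 0.0467 between numbers, so the numbers were taken as pairs; no label says what they mark. The reported fit leaves the pairing out, and its SE is the absolute log2 fold change over the square root of the F statistic. With the replicate block the SE of Cadm4 was 0.44 in place of 0.94, and that of Rtn2 was 0.62 in place of 0.60. The promoter table (RefSeq, GRCm38.p6) held 22 of the 31 genes (71.0%), under the 80% needed, so a comparison of promoter composition was void, and transcript starts were used. It lacked Usp44, Peg10, Epb41l5, Mmp17, Dusp9, Syngr3, Gli1, Hid1 and Plekha7.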

Additional observations from a re-analysis of the deposited data

Results flagged for a closer look

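Among 62 groups of 4 libraries (31 genes in treated and in untreated cells), 3 held a library that stood apart from its group by Dixon's test, close to the 5% that chance gives. All 3 were untreated replicate 2, with few reads behind each value. Sema6c had 0.0757 CPM there, against 0.413 to 0.462 CPM in the other untreated libraries. Plekha7 had 0.227 CPM there, against 0.769 to 0.825 CPM. Dzip1 had 0.454 CPM there, against 0.206 to 0.231 CPM.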

How the results depend on the processing

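The 31 genes were called higher in each of the 15 alternative fits, with a highest adjusted p of 0.0166; the rule that chose them used the same levels and largely fixes sign and call, so this is no sign of stability. In the fit with the replicate block all 31 were called, 2719 genes were higher and 2667 lower, and the block changed no call of the 31. Leaving out 1 library moved the fold change of 6 genes by over 1.5 times, as given beside each. The number of genes that met the rule depended on its limits. It was 13 with an untreated limit of 0.5 CPM, 72 and 8 with treated limits of 2 and 5 CPM, 265 by group means, 28 with TMM-scaled CPM and 110 without both libraries numbered 3. It ranged from 31 to 109 with 1 library left out. The mirrored rule gave 2 genes, 0 and 7 at limits of 0.5 and 2 CPM, 40 by group means, 14 without both libraries numbered 3 and 2 to 12 with 1 library left out. Genes called lower numbered 2080, 1368 with scaling by library size alone, which shifted the median log2 fold change of all genes by 0.30, and 1187 to 3077 with 1 library left out. Genes called higher numbered 2610, 3886 with scaling by library size alone, and 1793 to 3270 with 1 library left out. Without treated replicate 3 the counts were 3270 higher and 3077 lower.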
